A study of Mus musculus with 13 samples.

Results

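The genes described here are 8 genes of antigen presentation on major histocompatibility complex (MHC) class II: H2-Aa, H2-Ab1, H2-Eb1, H2-DMa, H2-DMb1, Cd74, Ciita and Cd86. They were chosen by name, as the deposited rows that carry these symbols, and all 8 are among the 14078 genes whose transcripts were listed for every library. The study sequenced adrenal gland RNA of C57BL/6 mice. In these mice an agent the labels call TAM induces the knockout of Star, which encodes the protein that delivers cholesterol into mitochondria, where steroid synthesis starts. The 13 libraries comprise 5 from before TAM, 4 from 24 h after it and 4 from 8 weeks after it. Star averaged 3797 ± 399 FPKM (fragments per kilobase of transcript, scaled to depth; SD, n = 5) before TAM, 335 ± 274 (n = 4) at 24 h and 146 ± 50.8 (n = 4) at 8 weeks. The driver of the deletion, the ages and whether each library is a separate animal are not given in the sources used here, so a p-value here measures only how these samples vary. No group given TAM without loss of Star was analysed here, so TAM, time and the loss of Star cannot be told apart.

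MHC class II molecules are pairs of an alpha and a beta chain that carry peptides from endocytosed proteins to the surface of antigen-presenting cells, where CD4 T cells read them. H2-Aa and H2-Ab1 encode the alpha and beta chains of the I-A molecule, and H2-Eb1 the beta chain of I-E. Cd74 encodes the invariant chain, which occupies the groove until proteases remove it, and H2-DMa and H2-DMb1 encode the chains of H2-DM, which exchanges its last fragment for peptide. Ciita encodes the class II transactivator, which does not bind DNA itself but is recruited to proteins bound at the X and Y boxes of class II promoters. Cd86 is not a class II gene; it encodes a costimulatory ligand of CD28 on the same cells. In tissues such as the adrenal gland these genes are known mainly from macrophages, dendritic cells and B cells.

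The files give 5 members in the class II region of chromosome 17 (mm10): H2-DMa at chr17:34122832-34139101, H2-DMb1 at chr17:34153191-34160229, H2-Ab1 at chr17:34263227-34269418, H2-Aa at chr17:34282751-34287771 on the minus strand and H2-Eb1 at chr17:34305867-34316674. Cd86 lies at chr16:36603869-36666077 on the minus strand. The Ciita model listed for all groups spans chr16:10489781-10527640.

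RefSeq promoter windows (GRCm38.p6, from 250 bases before to 50 after the start) were at hand for 4 of the 8 members, H2-Aa, H2-Eb1, H2-DMa and H2-DMb1. They were searched on both strands for ACNGATG, the end of the X box, and GATTGG, the Y box. The 150 bases before the start are shown for 3 members and for H2-DMb2, a near copy of H2-DMb1, because they show how the letters lie; capitals mark matches on either strand.
H2-Eb1 (chr17:34305717-34305866, plus strand): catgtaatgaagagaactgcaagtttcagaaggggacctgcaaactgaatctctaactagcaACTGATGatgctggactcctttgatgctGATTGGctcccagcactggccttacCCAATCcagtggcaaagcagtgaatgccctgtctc
H2-DMb1 (chr17:34153041-34153190, plus strand): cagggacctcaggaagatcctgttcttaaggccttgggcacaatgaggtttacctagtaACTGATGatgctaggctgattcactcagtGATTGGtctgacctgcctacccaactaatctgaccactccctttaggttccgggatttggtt
H2-DMb2 (chr17:34145099-34145248, plus strand): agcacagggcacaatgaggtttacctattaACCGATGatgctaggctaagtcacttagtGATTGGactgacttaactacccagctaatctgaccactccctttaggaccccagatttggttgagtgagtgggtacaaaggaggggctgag
H2-Aa (chr17:34287824-34287973, minus strand): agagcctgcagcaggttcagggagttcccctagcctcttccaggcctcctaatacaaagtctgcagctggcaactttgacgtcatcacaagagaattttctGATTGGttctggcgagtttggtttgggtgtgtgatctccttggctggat
In H2-Eb1 the X letters began 88 bases and the Y letters 60 bases before the start, with 21 bases between them. H2-DMb1 held the pair at 91 and 62 bases with 22 between, and H2-DMb2 at 120 and 91 bases, also with 22 between. H2-Aa held the Y letters at 49 bases with no X letters before them on that strand, and neither H2-DMa window held the pair. The windows of H2-Oa and H2-Ob, class II genes that are not members, were also searched. Both held the Y letters and neither held the pair. Of 32851 promoter windows, 9.85% held the X letters, 16.1% the Y letters and 0.0609% the pair in this order with 10 to 30 bases between. A match of letters is not evidence that a factor was bound, and a missing match is not evidence that a box is absent.

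All 8 genes were higher at 8 weeks than before TAM, and all 8 at 24 h. The genes for the class II chains, the invariant chain and H2-DM were 3.37-fold to 4.30-fold higher at 8 weeks and 2.20-fold to 2.93-fold higher at 24 h. Over all 14078 genes, edgeR's quasi-likelihood test with Benjamini-Hochberg adjustment called 20.5% higher and 16.4% lower at 8 weeks, and 12.6% higher and 6.63% lower at 24 h. The median log2 fold change of the 8 genes was 2.01 at 8 weeks and 1.38 at 24 h, against 0.03 over all genes at both times. Both comparisons use the same 5 libraries from before TAM. Ciita had at most 1 read in 4 of those 5 libraries, so it was listed through the later groups and could only be higher in them; the other 7 genes were well detected in every group. In bulk tissue, fewer cells of a type and less RNA per cell cannot be told apart, nor can more of either.

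The I-A alpha chain gene H2-Aa was at 178, 111, 37.9, 59.8 and 92.4 FPKM in the libraries from before TAM. It was at 342, 272, 235 and 172 FPKM at 24 h and at 436, 463, 328 and 272 FPKM at 8 weeks. Every 8-week library lay above every earlier one from before TAM, and at 24 h only replicate 4 fell below the highest of them. Its log2 fold change reached 2.10 (SE 0.36, adjusted p = 0.00079) at 8 weeks and 1.44 (SE 0.36, adjusted p = 0.014) at 24 h.

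Its partner H2-Ab1 was at 96.8, 63.1, 16.4, 37.2 and 57.8 FPKM before TAM, the widest relative spread of the 6 class II pathway genes other than Ciita. It was at 169, 151, 101 and 96.2 FPKM at 24 h and at 239, 248, 173 and 136 FPKM at 8 weeks. The groups before TAM and at 8 weeks did not overlap, and at 24 h replicate 4 lay just under the highest library from before. H2-Ab1 rose by 2.01 (SE 0.39, adjusted p = 0.0017) on the log2 scale at 8 weeks and by 1.28 (SE 0.39, adjusted p = 0.034) at 24 h.

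H2-Eb1, the I-E beta chain gene, was at 78.3, 46.7, 14.5, 31.4 and 47.0 FPKM before TAM. It was at 115, 105, 82.6 and 71.5 FPKM at 24 h and at 185, 194, 137 and 122 FPKM at 8 weeks. Its 8-week libraries all lay above both the earlier groups, as for no other member. Every 8-week library lay above every 24 h library for 9.92% of all genes, so 1 member of 8 is near that share. H2-Eb1 rose by 2.00 (SE 0.36, adjusted p = 0.00092) on the log2 scale at 8 weeks and by 1.13 (SE 0.35, adjusted p = 0.038) at 24 h. In C57BL/6 mice the I-E alpha chain gene is known to be defective, so this transcript is not matched by an I-E molecule at the surface.

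Cd74 had the highest level of the 8 genes, with 347, 258, 85.9, 150 and 210 FPKM before TAM. It reached 697, 633, 401 and 334 FPKM at 24 h and 801, 837, 551 and 399 FPKM at 8 weeks. The 8-week libraries all lay above those from before TAM, while at 24 h replicate 4 lay just below replicate 1 from before. Cd74 rose by 1.75 (SE 0.37, adjusted p = 0.0028) on the log2 scale at 8 weeks and by 1.33 (SE 0.37, adjusted p = 0.024) at 24 h. Ranked by FPKM among 14078 genes, it stood between 149 and 840 in the libraries from before TAM, between 48 and 185 at 24 h and between 67 and 155 at 8 weeks. It lies at chr18:60803849-60812652 and is listed as a shorter model of 1223 bases and a longer one of 1415 bases. The longer model held 22.7% ± 3.81 of Cd74 FPKM (SD, n = 5) before TAM, 23.2% ± 6.28 (n = 4) at 24 h and 23.02% ± 3.12 (n = 4) at 8 weeks. No difference between these groups passed an exact two-sided permutation test (adjusted p = 0.97 for each of 3). All Cd74 counts were estimates split between the models.

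The genes for the peptide editor H2-DM had lower levels than those of the chains they act on. H2-DMa was at 8.89, 5.49, 2.41, 4.02 and 5.92 FPKM before TAM, at 16.3, 15.1, 8.73 and 11.9 FPKM at 24 h and at 18.8, 19.7, 15.8 and 11.95 FPKM at 8 weeks. H2-DMb1 was at 11.3, 7.52, 3.30, 4.05 and 4.94 FPKM before TAM, at 23.4, 19.8, 13.7 and 14.4 FPKM at 24 h and at 28.1, 27.3, 22.9 and 15.9 FPKM at 8 weeks. For H2-DMb1 both later groups lay wholly above the one from before TAM, and for H2-DMa 24 h replicate 3 fell just inside it. H2-DMa rose by 1.77 (SE 0.32, adjusted p = 0.0011) on the log2 scale at 8 weeks and by 1.32 (SE 0.32, adjusted p = 0.012) at 24 h. H2-DMb1 rose by 2.06 (SE 0.34, adjusted p = 0.00052) and by 1.55 (SE 0.33, adjusted p = 0.0065). H2-DMb1 counts were not whole in 6 of 13 libraries, as happens where reads are shared with another model; H2-DMb2 counts were not whole in 5 of 13.

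Cd86, the costimulatory ligand, varied little before TAM. It was at 1.64, 1.23, 1.35, 1.26 and 1.33 FPKM in those libraries, a ratio of 1.33 between the highest and the lowest. It was at 5.44, 5.92, 2.34 and 3.40 FPKM at 24 h and at 4.64, 5.26, 4.42 and 3.21 FPKM at 8 weeks. Both later groups lay wholly above the libraries from before TAM, and they overlapped each other. On the log2 scale Cd86 rose by 1.82 (SE 0.28, adjusted p = 0.00034) at 8 weeks and by 1.68 (SE 0.28, adjusted p = 0.0013) at 24 h.

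Ciita, the transactivator gene, was near the detection limit. Its common model held 17, 1, 0, 0 and 0 reads before TAM, 138, 79, 160 and 0 at 24 h, and 255, 184, 42 and 3 at 8 weeks. In FPKM this was at most 0.131 before TAM, at most 1.00 at 24 h and at most 1.72 at 8 weeks. The later groups overlapped the one from before TAM, since 24 h replicate 4 and 8-week replicate 4 were at or near 0. The fitted log2 fold changes were 5.02 (SE 1.46, adjusted p = 0.017) at 8 weeks and 4.43 (SE 1.44, adjusted p = 0.047) at 24 h, and depend on how the few reads are treated. The 24 h table lists 2 further Ciita models that start upstream, at base 10480072 of chromosome 16. With them the 24 h libraries held 327, 242, 203 and 106 reads, so the 0 of replicate 4 belongs to the common model and not to the gene. For the other groups those models were not analysed here, so the change of the whole gene cannot be given.

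**Figure D1:**
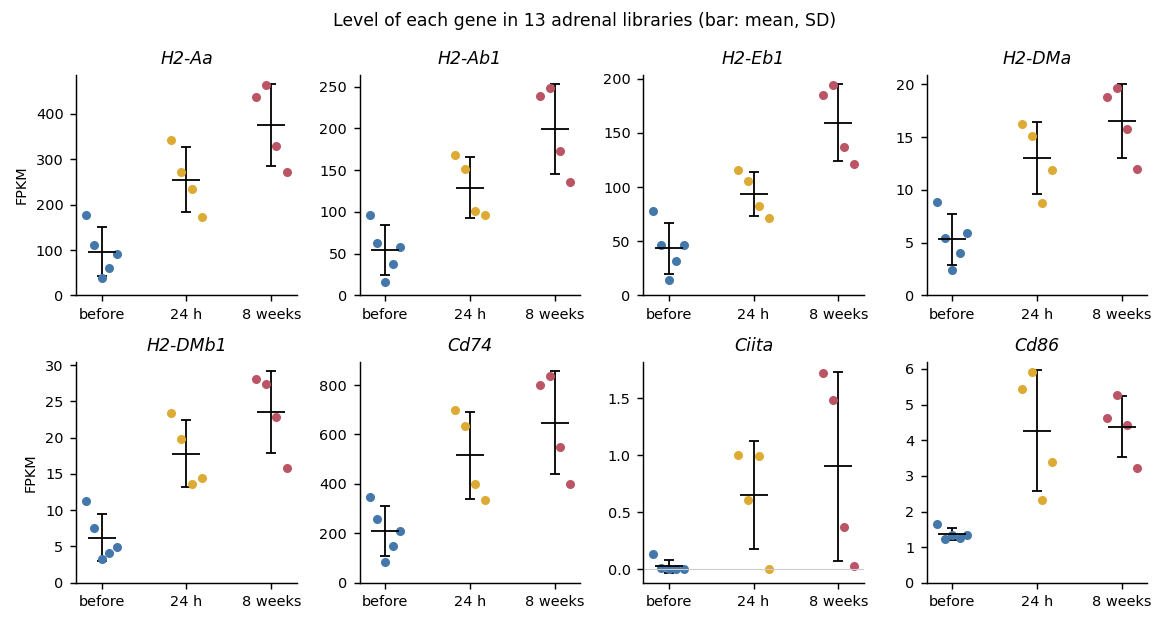
FPKM of each of the 8 genes in the libraries from before TAM, at 24 h and at 8 weeks; each point is a library and the bar the mean with its SD. For 7 genes the 8-week points all lie above those from before TAM, and Ciita is the exception.

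In FPKM, every 8-week library lay above every library from before TAM for 7 of the 8 genes, against 18.1% of all genes. At 24 h this held for 2 of 8, H2-DMb1 and Cd86, against 9.75% of all genes; in TMM-scaled CPM, a count per library not divided by length, it held for 4 of 8, with H2-Aa and Cd74 added, against 9.57% of all genes. The count of genes called at 24 h also rested on single libraries. It was 8 of 8 with all libraries, 5 without before replicate 2 or 5, and 4 without before replicate 4, 24 h replicate 1 or 24 h replicate 2. H2-Aa, H2-DMa, H2-DMb1 and Cd86 were called at 24 h under each of the 20 alternatives tried, H2-Ab1, H2-Eb1, Cd74 and Ciita in some of them only.

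Between 24 h and 8 weeks none of the 8 genes was called by edgeR or DESeq2, while edgeR called 20.8% of all genes, with 10.1% of all genes higher at 8 weeks. The log2 difference ran from 0.14 for Cd86 to 0.87 for H2-Eb1, with a median of 0.55 against -0.03 over all genes. The intervals are wide: H2-Eb1 had a 95% interval from 0.04 to 1.70 (SE 0.37, adjusted p = 0.11) and H2-Aa from -0.18 to 1.51 (SE 0.38, adjusted p = 0.22). For Cd86 the interval ran from -0.51 to 0.78. H2-Eb1 was the gene with an unadjusted p under 0.05 and the 1 gene of 8 whose groups did not overlap, against 9.92% of all genes; without before replicate 3 its adjusted p was 0.040.

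**Figure D2:**
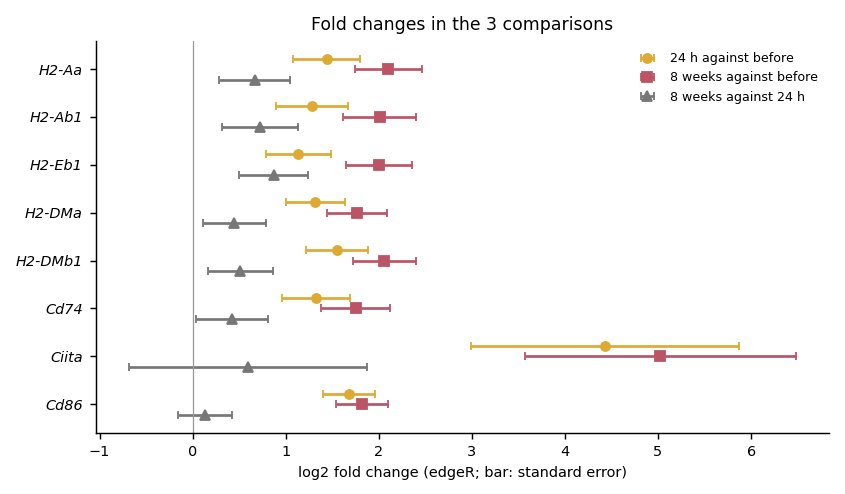
Log2 fold change of each of the 8 genes in the 3 comparisons, from edgeR, with its standard error as the bar. The 24 h and 8-week values against before TAM lie above 1 for all 8 genes, and the values for 8 weeks against 24 h lie between 0.14 and 0.87.

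The libraries from before TAM differed among themselves in the class II genes far more than in most genes. Replicate 1 was highest and replicate 3 lowest for H2-Aa, H2-Ab1, H2-Eb1, H2-DMa, H2-DMb1 and Cd74. The highest library exceeded the lowest by 5.91 times for H2-Ab1, 4.69 times for H2-Aa and 3.41 times for H2-DMb1. On the log2 CPM scale the range was 1.70 to 2.50 for these 6 genes, against a median of 0.53 over 13931 genes, and 90.5% to 96.4% of genes had a smaller range. For Cd86 the range was 0.41, and 37.3% of genes had a smaller one. At 8 weeks replicate 4 was lowest for all 8 genes.

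The order of levels was nearly fixed. In 13 of 13 libraries FPKM fell from Cd74 to H2-Aa, then H2-Ab1, then H2-Eb1, and from there to the H2-DM genes and Cd86. H2-DMb1 exceeded H2-DMa in 12 of 13 libraries, with a ratio from 0.833 in before replicate 5 to 1.57 in the highest library, and these were the neighbours whose order was not the same in every library. H2-Ab1 exceeded H2-Eb1 by 1.12 to 1.46 times. Cd74 took 50.6% of the reads of the 8 genes before TAM, 50.5% at 24 h and 45.8% at 8 weeks, and H2-Aa took 19.5%, 21.2% and 22.2%. The 8 genes together held 0.0226% to 0.102% of listed reads before TAM, 0.0973% to 0.192% at 24 h and 0.135% to 0.246% at 8 weeks.

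Ratios within a library do not depend on scaling between libraries, and were used to ask whether the genes moved by unequal amounts. The H2-Aa to Cd74 ratio was 0.512, 0.430, 0.441, 0.397 and 0.440 before TAM and 0.545, 0.554, 0.596 and 0.682 at 8 weeks, with no overlap. The log2 difference was 0.42 (exact two-sided permutation p = 0.016, the smallest that 4 against 5 libraries can give). The ratios of H2-Ab1 and H2-Eb1 to Cd74 also did not overlap between these groups, with differences of 0.35 and 0.33 and the same exact p = 0.016. The H2-DMa ratio differed by 0.02 (exact permutation p = 0.90). After adjustment over the 18 ratios and comparisons tested none passed, with 5 at an unadjusted p under 0.05 and the lowest adjusted p being 0.095. Over 18 tests a ratio at the smallest possible p passes only where at least 6 tests reach it, so this adjustment could hardly be passed and its outcome does not show that the genes moved by equal amounts. Ciita was left out of these ratios because it had libraries at 0.

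**Figure D3:**
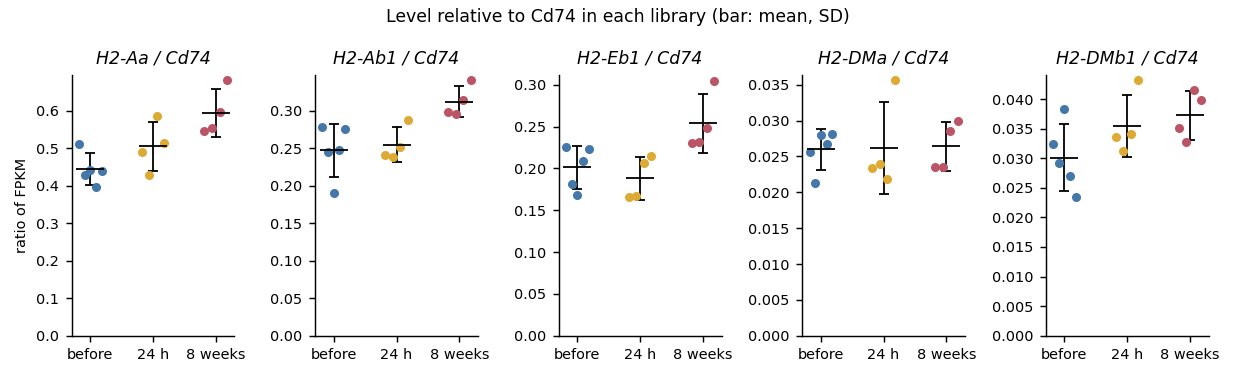
Ratio of FPKM to that of Cd74 in each library for H2-Aa, H2-Ab1, H2-Eb1, H2-DMa and H2-DMb1, with the group mean and SD; each axis starts at 0. For H2-Aa the 8-week ratios, 0.545 to 0.682, lie above those from before TAM, 0.397 to 0.512.

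Ptprc, which encodes CD45 and is carried by nearly all leukocytes, averaged 4.81 ± 1.46 FPKM (SD, n = 5) before TAM, 16.8 ± 3.75 (n = 4) at 24 h and 24.5 ± 4.76 (n = 4) at 8 weeks. It rose by 2.48 (SE 0.24) on the log2 scale at 8 weeks, with an edgeR adjusted p of 1.7e-05. The ratios of 7 of the 7 members tested to Ptprc were lower on average at 8 weeks than before TAM, by log2 differences from -0.24 to -0.70, all with the same Ptprc values in the denominator. Of 21 ratios and comparisons none passed adjustment, and 1 had an unadjusted p under 0.05. At the smallest possible p, at least 7 of the 21 would have to reach it for any to pass, so no single gene could. The largest shift was in Cd86, whose ratio to Ptprc was lower at 8 weeks by a log2 difference of -0.70 (exact permutation p = 0.016, adjusted p = 0.33). For Cd74 the log2 difference was -0.66 (exact permutation p = 0.079, adjusted p = 0.56).

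Marker genes of macrophages, dendritic cells and B cells, which carry class II, and of T cells, which read it, were also called higher. At 8 weeks 11 of 12 macrophage genes, 6 of 9 dendritic cell genes, 5 of 5 B cell genes and 8 of 8 T cell genes were called higher, and at 24 h 10, 2, 1 and 1 of them. The summed FPKM of the macrophage genes was 352 to 961 before TAM, 1739 to 3407 at 24 h and 3811 to 7645 at 8 weeks. Lyz2, the lysozyme gene of myeloid cells, made up 78.4% of this sum at 8 weeks, and the other 11 genes together were at 201 to 364, 611 to 1405 and 1060 to 1478. From 24 h to 8 weeks 1 of the 12, Lyz2, was called higher and 1, Fcgr1, lower, with a median log2 fold change of 0.04. The sum of the dendritic cell genes was 7.11 to 15.7, then 29.1 to 50.7, then 64.6 to 99.0. Itgax, which encodes the integrin CD11c, made up 74.3% of it at 8 weeks, and the other 8 genes together averaged 8.13 before TAM, 15.7 at 24 h and 22.1 at 8 weeks. Not all of them moved this way at both times. Flt3 averaged 0.258 FPKM before TAM, 0.234 at 24 h and 1.11 at 8 weeks, and Xcr1 0.247, 0.219 and 0.936. Flt3 and Xcr1 were called higher at 8 weeks and not at 24 h. Zbtb46 averaged 3.28 FPKM before TAM, 4.46 at 24 h and 2.10 at 8 weeks, and was not called against before TAM at either time. The sum of the B cell genes was 1.94 to 5.94, then 6.57 to 10.5, then 11.9 to 79.3, the last in 8-week replicate 1, and without Cd22 it was 1.51 to 5.01, 2.87 to 4.22 and 5.59 to 71.5. None of these genes was at 0 in all the libraries from before TAM. Without before replicate 1 the count of T cell genes at 24 h was 4, and without 24 h replicate 4 it was 2. The part of cell number in the rise of the 8 genes was not tested.

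**Figure D4:**
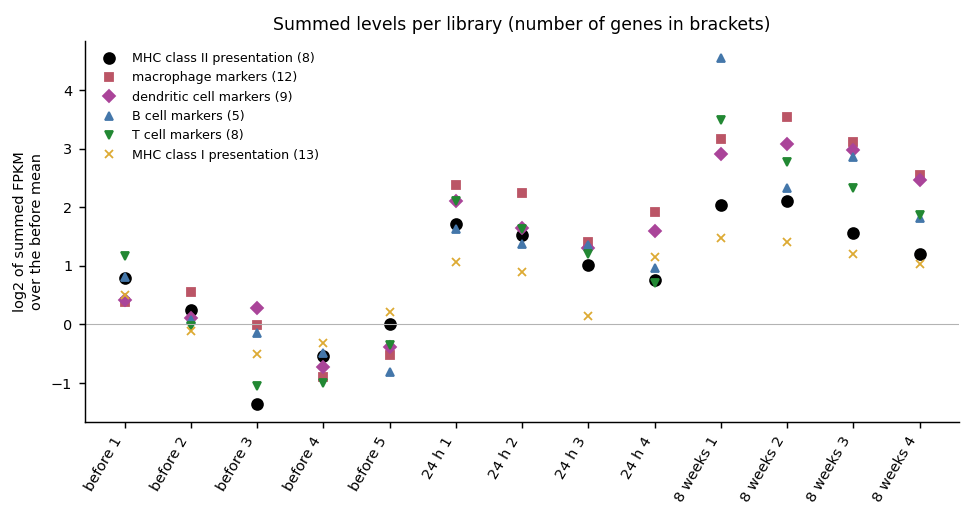
Summed FPKM per library as the log2 ratio to the mean from before TAM, for the 8 genes and for macrophage, dendritic cell, B cell, T cell and MHC class I gene lists. The sum of the 8 genes runs from 162 to 722 FPKM before TAM and from 960 to 1796 at 8 weeks. Lyz2 and Itgax make up most of the macrophage and dendritic cell sums at 8 weeks.

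Of 8 cortex genes 5 fell at 8 weeks, 3 without 8-week replicate 1, 3 or 4 and all 8 without 24 h replicate 3, and their summed FPKM was 18456 to 24518 before TAM and 1553 to 3740 at 8 weeks. Library 24 h replicate 3 stood apart: Cyp11b1 was at 1.07 FPKM and Cyp21a1 at 2.42 FPKM there, genes of the last steps of corticosterone synthesis, and its 6 medulla genes summed to 18.7 FPKM. The medulla sum of 24 h replicate 4 was 115, against 1167 to 5136 before TAM. Without replicate 3 the count of members called at 24 h was 7 of 8, and without both, an alternative chosen after seeing the data, it was 8 of 8. The fat cell genes summed to 184 FPKM in before replicate 1, 1622 to 1762 in the other libraries from before TAM and 7406 to 15214 at 8 weeks. The part of tissue makeup in the results was not tested.

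Both other class II genes tested were called higher at 8 weeks. H2-Ob, a chain of the H2-DM inhibitor H2-O, was at 0.575 ± 0.274 FPKM (SD, n = 5) before TAM, 0.428 ± 0.201 (n = 4) at 24 h and 2.34 ± 1.28 (n = 4) at 8 weeks. It rose by 2.15 (SE 0.47, adjusted p = 0.0032) on the log2 scale from before TAM to 8 weeks and by 2.54 (SE 0.51, adjusted p = 0.0082) from 24 h to 8 weeks. H2-DMb2 was at 1.31 ± 0.438 FPKM before TAM, 2.49 ± 1.02 at 24 h and 8.07 ± 4.67 at 8 weeks, a log2 rise of 2.75 (SE 0.44, adjusted p = 0.00047) at 8 weeks. Neither was called at 24 h; without 24 h replicate 3, 1 of the 2 was. Without 8-week replicate 1, which also had the highest B cell sum, 1 of the 2 was called between 24 h and 8 weeks. In that library H2-DMb2 was at 14.8 FPKM and H2-Ob at 4.21 FPKM, the highest of the 13.

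A further list holds genes that cut antigen and the invariant chain or remove class II from the surface. Of its 8 genes, 7 were called higher at 8 weeks and the same number at 24 h. Ctss, the protease that trims the invariant chain in antigen-presenting cells, was at 185, 158, 90.9, 64.7 and 92.3 FPKM before TAM. It was at 805, 615, 660 and 1136 FPKM at 24 h and at 1872, 2486, 1770 and 1438 FPKM at 8 weeks, so none of the groups overlapped. It rose by 4.13 (SE 0.35, adjusted p = 7.8e-06) on the log2 scale at 8 weeks. Ctsl, a further cathepsin of this step, went from 150 ± 36.1 FPKM to 361 ± 37.7 and 895 ± 60.5. March1, a ubiquitin ligase that removes class II and CD86 from the surface, went from 1.16 ± 0.186 to 5.43 ± 1.43 and 5.58 ± 1.27 FPKM. Its relative March8 was at 28.3 ± 3.57, 25.8 ± 4.805 and 22.8 ± 3.67 FPKM and was not called.

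Among 12 genes for regulators of class II transcription, 4 were called higher at 8 weeks and 3 higher at 24 h. None of those for proteins that bind the X and Y boxes was called higher. Rfxap, Rfxank, Creb1, Nfya, Nfyb and Nfyc were not called at either time, and Rfx5 fell by 0.69 (SE 0.19, adjusted p = 0.021) on the log2 scale at 24 h. The Rfx5 call was lost without before replicate 1 or 24 h replicate 2. At 8 weeks none of the 12 was called lower, but 2 were without 24 h replicate 3 or 4 and 1 without before replicate 2. Spi1, the gene of the myeloid factor PU.1, went from 5.10 ± 1.62 FPKM (SD, n = 5) to 26.8 ± 16.5 (n = 4) and 30.1 ± 5.19 (n = 4), and rose by 2.70 (SE 0.38, adjusted p = 0.00018) on the log2 scale at 8 weeks. Irf4, a factor of B cells and some dendritic cells and macrophages, rose by 4.01 (SE 0.74, adjusted p = 0.0013), from 1.00 ± 0.346 to 14.7 ± 8.86 FPKM. At 8 weeks Irf4 was highest in replicate 4, at 27.4 FPKM, the library in which each member was lowest. It was lowest in replicate 1, at 7.98 FPKM, the library with the highest B cell sum. Which cells carried Irf4 was not tested. Irf1 and Irf8 rose by 0.73 (SE 0.19, adjusted p = 0.0091) and 0.65 (SE 0.22, adjusted p = 0.035).

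Interferon gamma is the best known inducer of Ciita, and of 9 genes of its receptor, signal and targets, 4 were called higher at 8 weeks and 6 at 24 h. The receptor genes Ifngr1 and Ifngr2 and the targets Cxcl9 and Iigp1 were called at both times. Cxcl9, a chemokine, went from 1.03 FPKM to 4.79 and 6.00. Cxcl10, a further chemokine, and Gbp2 were called higher at 24 h and not at 8 weeks. Cxcl10 averaged 1.94 FPKM before TAM, 20.7 at 24 h and 4.25 at 8 weeks, and its difference between 24 h and 8 weeks gave a log2 value of -2.23 (SE 0.75, adjusted p = 0.051). Ifng itself was not among the genes tested.

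Of 7 other costimulation genes tested, 5 were called higher at 8 weeks. Cd80, the paralog of Cd86, went from 0.304 FPKM to 0.813 and 1.39, and rose by 2.31 (SE 0.34, adjusted p = 0.00027) on the log2 scale. Cd28 and Icos, receptors of T cells, rose by 2.65 (SE 0.40, adjusted p = 0.00031) and 3.05 (SE 0.55, adjusted p = 0.00099). Cd83 rose by 2.53 and Cd274, which encodes the inhibitory ligand PD-L1, by 1.42 on the log2 scale. Cd40 was at 0.754, 1.78 and 0.761 FPKM and Icosl at 17.5, 12.6 and 12.7 FPKM, and neither was called.

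**Figure D5:**
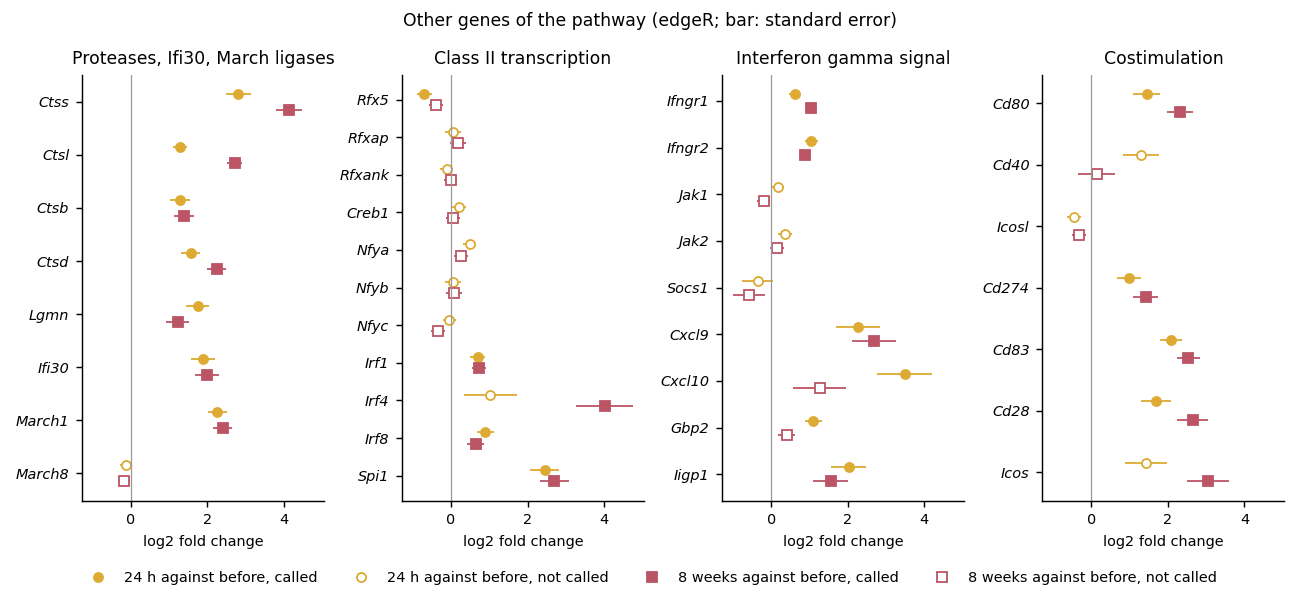
Log2 fold change against before TAM, with its standard error, of genes for antigen proteolysis, class II transcription, the interferon gamma signal and costimulation; filled symbols passed the edgeR threshold. Ctss reaches 4.13 and Irf4 4.01 at 8 weeks, and none of the X and Y box genes from Rfx5 to Nfyc was called higher.

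MHC class I genes present peptides from inside the cell. Of 13 genes, 9 were called higher at 8 weeks and 6 at 24 h, with median log2 fold changes of 0.96 and 0.85; without 24 h replicate 4 the count at 24 h was 3. B2m, the shared light chain gene, rose by 1.57 (SE 0.31, adjusted p = 0.0017) and H2-D1 by 1.78 (SE 0.26, adjusted p = 0.00025) at 8 weeks. The difference between the class II and class I genes was not tested. Along the class II stretch of chromosome 17, 10 of 18 genes were called higher at 8 weeks and 1, Ring1, lower. Of these 10, 7 are class II genes; the others are Psmb8, Psmb9 and Col11a2. Genes with other roles lay among them: Brd2 gave a log2 value of -0.26 (SE 0.10, adjusted p = 0.066), Rxrb 0.06 (SE 0.14, adjusted p = 0.78) and Tap2 0.42 (SE 0.18, adjusted p = 0.094). Without 24 h replicate 3 the count of lower genes was 5, without 24 h replicate 4 it was 2, and without 8-week replicate 1 it was 0.

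Other genes were ranked by how near their profile over the 13 libraries lay to the mean of H2-Aa, H2-Ab1, H2-Eb1 and Cd74, as the root mean square log2 difference, among 13923 genes. The nearest were Rasal3 at 0.319, 5430427O19Rik at 0.321, Nkg7 at 0.360, Ccl5 at 0.375, Tmem106a at 0.376, Fblim1 at 0.378 and Plcb2 at 0.379, against a median of 1.60. Rasal3 averaged 0.897 FPKM before TAM, 2.18 at 24 h and 4.05 at 8 weeks, and Ccl5, a chemokine of T cells and NK cells, 4.23, 10.9 and 16.6. By the same measure H2-DMa was at 0.238 and H2-DMb1 at 0.240, while Cd86 stood at 0.534 and Ciita at 2.36.

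In the authors' deposited table, which compares 8 weeks with before TAM, all 8 genes had q-values under 0.05. The share of all genes with such q-values there was not computed, so this count has no background to be set against. The lowest q-value of the 8 genes was 0.00062 for Cd86, with a log2 ratio of 1.67, and the highest was 0.042 for Ciita, with a log2 ratio of 8.23. In the authors' deposited table H2-Aa had a log2 ratio of 2.13 and a q-value of 0.012.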

How the data were processed

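The labels describe mRNA libraries made with a stranded kit from adrenal gland. Per the submitters' processing notes, the authors used bcl2fastq 2.17 and TopHat2 2.0.14 and the build mm10 (GRCm38). The sources used here do not name the read counter. The deposited tables give an expected count, an estimate that need not be whole, and FPKM for each RefSeq transcript and library, per the file headers. A further deposited table holds log2 FPKM and the log2 ratio of 8 weeks to before TAM, with its p-value and q-value, per the file headers.

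Listed reads ran from 17331673 to 27309429 per library. Expected counts were summed per gene over the 18738 transcripts listed for all groups and rounded. All 13 libraries entered 1 edgeR 4.0.16 quasi-likelihood fit with TMM scaling and a filter on low counts, which removed no gene; p-values were adjusted over all 14078 genes and called under 0.05. Intervals use 10 residual degrees of freedom. DESeq2 1.42.0 and limma 3.58.1 served as alternatives. On simulated data with 14025 genes the 8-week comparison called 94% of 4-fold and 67% of 2-fold changes, and 7 of 13825 unchanged genes. All simulated libraries took their spread from those before TAM, so these shares need not hold for the real libraries. Over 13931 genes the median range in log2 CPM was 0.53 before TAM, 1.03 at 24 h and 0.57 at 8 weeks. Ratios were tested by exact permutation. Named genes are the members, up to 4 called genes per list in order of p with others a sentence needed, and the 8 nearest profiles; some of these are not reported here. The members and lists were chosen with earlier results of these data known.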

Additional observations from a re-analysis of the deposited data

Results flagged for a closer look

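Among the 24 sets of a gene in a group, 1 had a library far from the others. Ciita was at 0.131 FPKM in before replicate 1, and the next highest library from before TAM was at 0.00853 FPKM. The limit used is one that about 1 in 20 sets of normally distributed values would pass, and 2 of the 5 libraries from before TAM were at 0. The same library was the highest of its group for all 8 genes.

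A pair of class II genes was listed for the groups before TAM and at 8 weeks only, and so took no part in the fit. H2-Oa, the alpha chain of H2-O, averaged 2.79 ± 0.811 FPKM (SD, n = 4) at 8 weeks, above the highest library from before TAM at 0.815 FPKM. H2-Eb2, a beta chain gene beside H2-Eb1, averaged 0.520 ± 0.327 FPKM (SD, n = 4) at 8 weeks, above the highest library from before TAM at 0.145 FPKM. Before TAM H2-Oa averaged 0.415 FPKM and H2-Eb2 0.0821 FPKM. For both genes every 8-week library lay above every library from before TAM. The same held for 18.1% of the 14078 genes tested, a set that does not include this pair. Both genes were low before TAM and may have been listed through the 8-week group, so this separation is not evidence of a rise. The difference was not tested.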

How the results depend on the processing

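At 8 weeks against before TAM all 8 genes were called under each of the 20 alternatives (range leaving out 1 library 8 to 8). Ciita could only be higher in the later groups, so these counts bear on the other members only. Over all genes the alternatives called from 2183 higher, with the replicate number as a block, to 4344 higher, with limma's quality weights, against 2882. At 24 h the count of members called was 8, 5 when only the 2 groups compared were fitted, and 4 to 8 when 1 library was left out. Between 24 h and 8 weeks the count was 0, and 0 to 1 when 1 library was left out. No ratio or transcript share was called under any alternative. The sign reversed between 24 h and 8 weeks for Ciita with limma's quality weights (-0.38) and for Cd86 with those weights (-0.21), without 24 h replicate 3 (-0.14, in a range of -0.14 to 0.34 when 1 library was left out) and, chosen after seeing the data, without both 24 h libraries low in medulla genes (-0.31); the cause was not tested. Leaving TMM out moved the median of all genes at 8 weeks from 0.03 to -0.10, and the calls from 2882 higher and 2311 lower to 2424 higher and 3054 lower. With the replicate number as a block, 8, 8 and 0 members were called at 8 weeks, at 24 h and between them. Over all genes at 24 h the block gave 880 higher and 432 lower calls, against 1774 and 934. Between 24 h and 8 weeks the 1428 higher and 1495 lower calls over all genes became 934 and 727 with the block, 460 and 513 when only these 2 groups were fitted, and 1181 and 2093 without TMM. In their deviations from group means, libraries with the same number correlated by -0.125 to 0.277 and those with different numbers by -0.256 to 0.341. These values cannot show whether libraries with the same number share an animal or a batch. Expected counts split between models limit Ciita, Cd74 and H2-DMb1, and the few reads limit Ciita.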
